A study of Bos taurus with 8 samples.

Results

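The motile cilium and axoneme genes of the bovine endometrium were examined in biopsies from cows given methylglyoxal or the fluid without it. The genes were chosen by name, as those whose symbol in the array files begins with DNAH, DNAI, RSPH or TEKT and a number, together with CCDC39, CCDC40, CAPS, FOXJ1, HYDIN, SPAG6, SPAG16 and SPAG17. There were 28 such genes among the 16455 with a symbol, with 43 of the 43653 noncontrol probes, and each gene is given by its brightest probe on average. HYDIN carried no symbol of its own and was found by its name in the description of its probes.

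The study asked how methylglyoxal, a reactive dicarbonyl that arises as a by-product of glycolysis, acts on the endometrium when it is put into the uterus. Standing estrus was day 0, 25 mL at 0 mM or 5 mM was injected into each horn on day 1, and on day 7 a biopsy was taken from the horn next to the ovary with the corpus luteum. Each group had 4 cows, and each biopsy was hybridised to its own one-colour array, so that all values come from separate animals and all cows received the injection of fluid. The labels give no breed or age, and a biopsy holds epithelium, stroma, vessels and, at varying depth, muscle.

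Motile cilia beat on a subset of cells of the uterine epithelium and move fluid over the surface. The core of a cilium, the axoneme, is a ring of microtubule doublets around a central pair. Dynein arms on the doublets produce the sliding force, radial spokes pass signals between the central apparatus and the arms, tektins line the inner wall of the doublets, and the transcription factor FOXJ1 switches on the genes for these parts.

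Between 68.3% and 73.2% of the probes were well above background on each array, and none was saturated. A level is the log2 signal minus that of the 75th percentile on its array, so that 0 marks that percentile. Levels of different probes cannot be set against each other. Differences are 5 mM minus 0 mM with their standard error (SE), and the number of arrays limits the precision. A gene was tested where 4 or more of the 8 arrays had its probe well above background, and p-values are from limma.

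Of the 28 genes, 21 were tested and all 21 had lower mean values in the 5 mM group, but none passed the multiple-testing threshold of an adjusted p under 0.05. The median difference was -0.93, with a range from -1.91 to -0.098. Over all 12685 tested genes with a symbol, 48.2% were lower and the median was 0.011. The adjusted p was 0.913 for each of the 21 genes, and the share of the 31108 tested probes with an adjusted p under 0.05 was 0%. Without adjustment, 595 of those probes and 1 of the 21 genes, TEKT2, had a p under 0.05, against 1.06% of all tested genes lower at that level. The groups overlapped in every one of the 21 genes, whereas 0.52% of all tested genes had the 4 cows given 5 mM wholly below the 4 given 0 mM.

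The size of the difference rested on 1 biopsy. In 5 mM replicate 1, 18 of the 21 genes (85.7%) had their lowest value of all cows, against 30.3% of all tested genes. DNAH1 (-3.055) and RSPH3 (0.416) were only just lowest there, the next lowest cows being at -3.053 and 0.42. In this cow 13 of the 21 probes were not well above background. Without this cow the median difference was -0.33, with 21 of 21 genes lower against 47.3% of all tested genes, and the range ran from -1.18 to -0.044. In that fit, too, the adjusted p was 1 for each gene. The groups still overlapped in all 21 genes, while 1.1% of all tested genes had 5 mM wholly below 0 mM. The genes were measured in the same biopsies and are not independent of each other.

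**Figure D1:**
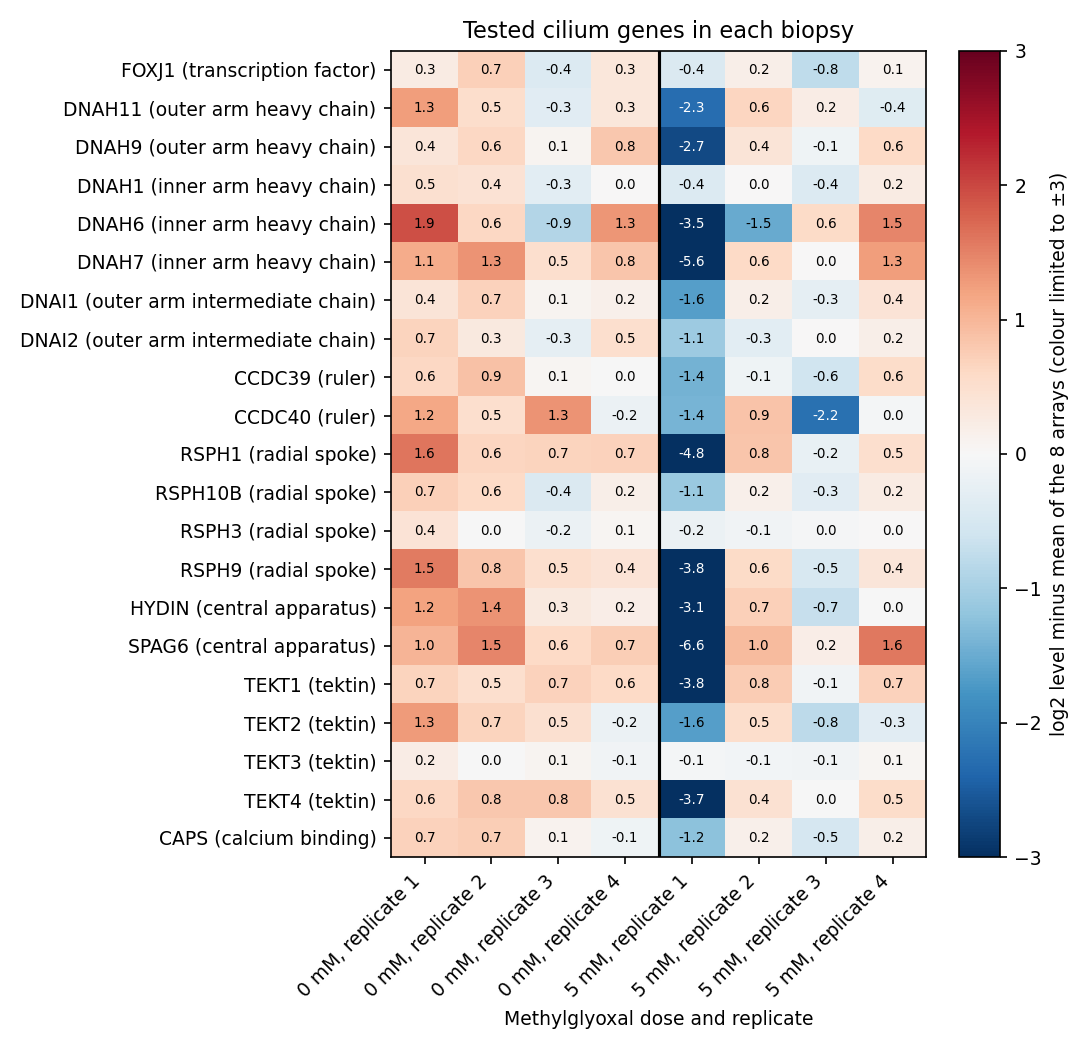
Log2 level of each of the 21 tested genes minus its mean over the 8 arrays, with genes in rows by role and cows in columns, the 0 mM group left of the black line and the 5 mM group right of it. The column of 5 mM replicate 1 holds the lowest value for 18 of the 21 genes, while RSPH3 and TEKT3 stay near 0 in all columns.

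The mean over the 21 genes, relative to the mean of the 8 arrays, was 0.87, 0.68, 0.17 and 0.34 in 0 mM replicates 1 to 4 and -2.40, 0.28, -0.32 and 0.39 in 5 mM replicates 1 to 4. Apart from the low value of 5 mM replicate 1, the next lowest was 5 mM replicate 3, and the other 5 mM cows lay within the range of the 0 mM cows. The highest value over the 8 arrays fell on 0 mM replicate 1 or 2 for 81% of the 21 genes and for 19.1% of all tested genes. Among the 7 other arrays, 5 mM replicate 3 was the lowest for 16 of the 21 genes (76.2%), against 21.5% of all tested genes. The SD of a gene over the 4 cows of a group had a median of 0.43 with 0 mM and 1.29 with 5 mM, and it was larger with 5 mM for 17 of the 21 genes. The SD with 5 mM includes the low values of 5 mM replicate 1, so it does not describe the other cows of that group.

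Markers of the luminal and glandular epithelium, from which ciliated cells arise, were low in the same biopsy. The mean of 23 such markers was -3.35 in 5 mM replicate 1, between 0.24 and 0.54 in the rest of that group, and between 0.35 and 0.84 in the 0 mM group. EPCAM, the epithelial adhesion gene, was at -1.26 in 5 mM replicate 1 and between 4.33 and 4.83 in the others, and it was well above background on all 8 arrays. All 23 markers were lower in the 5 mM group (median -1.185), and 18 of 23 were lower without 5 mM replicate 1 (median -0.11). With the epithelium marker mean as a covariate in the fit, the median of the cilium genes was -0.20 and 20 of 21 were lower, SPAG6 being the exception at 0.23. The covariate mainly sets 5 mM replicate 1 apart from the other cows, so this fit and leaving out that cow are not separate checks. In bulk tissue, fewer cells of a type and less RNA per cell cannot be told apart.

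Smooth muscle markers ran the other way in that biopsy. The mean of the 14 with a value on every array was 2.22 in 5 mM replicate 1 and ranged from -1.05 to 2.22 in the 5 mM group and from -1.45 to 1.12 in the 0 mM group, and 13 of 15 tested were higher in the 5 mM group (median 1.08, or 0.27 without 5 mM replicate 1). The next highest muscle mean was 1.37 in 5 mM replicate 3, where the cilium genes were at -0.32. In 0 mM replicate 1 the muscle mean was 1.12 and the cilium genes were at their highest, 0.87. The part of the muscle share in the cilium result was not tested.

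**Figure D2:**
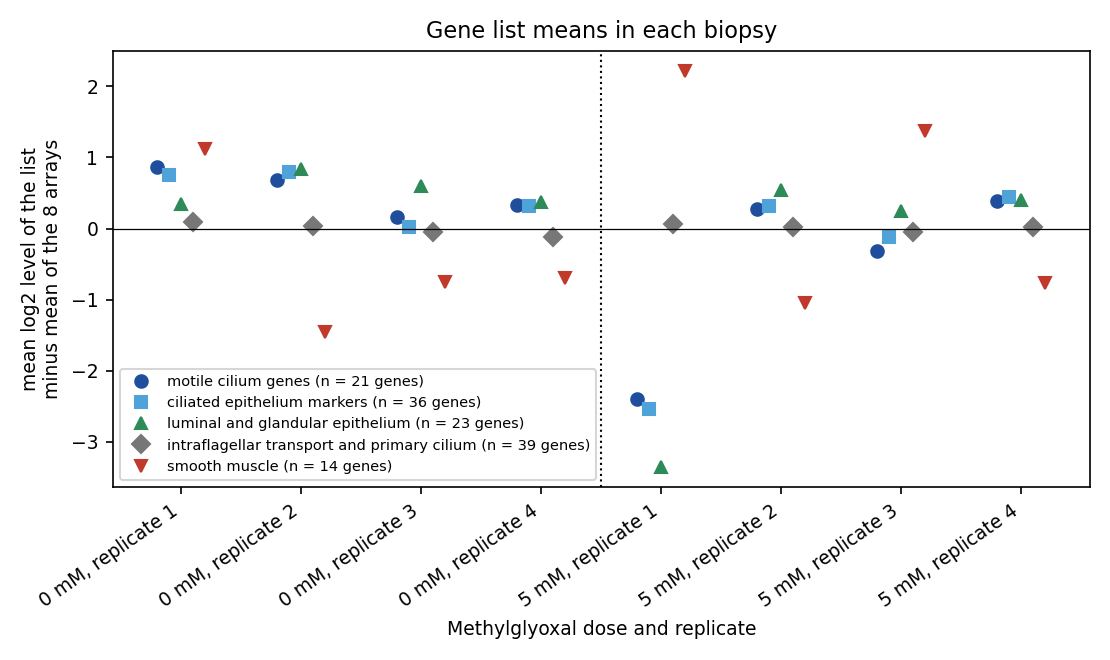
Mean log2 level of 5 gene lists in each biopsy, relative to the mean of the 8 arrays, with cows on the horizontal axis and the groups parted by the dotted line. In 5 mM replicate 1 the cilium genes (-2.40), ciliated cell markers (-2.53) and epithelium markers (-3.35) are low, smooth muscle markers (2.22) are high, and intraflagellar transport genes (0.057) lie near 0.

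Arrays of both groups shared 3 slides. Fitted with slide as a block, the cilium genes had a median of -0.96. Inside slide 1 the median was -2.92 with 21 of 21 genes lower, inside slide 2 it was -0.076 with 15 lower, and inside slide 3 it was -0.31 with 19 lower. Slide 1 held replicate 1 of each group, slide 2 held 1 array of 5 mM and slide 3 held 1 array of 0 mM, and the values within slides have no test. The median was -0.34 after normexp background correction with an offset of 50, and -0.33 with array weights, which gave 5 mM replicate 1 a weight of 0.19.

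FOXJ1, the transcription factor that drives formation of motile cilia, was at -5.82, -5.36, -6.48 and -5.73 in 0 mM replicates 1 to 4 and at -6.50, -5.90, -6.82 and -5.96 in 5 mM replicates 1 to 4. These levels lie close to background, and the probe exceeded it on 3 arrays with 0 mM and 2 with 5 mM. The groups overlapped, and the difference was -0.45 ± 0.30, or -0.38 without 5 mM replicate 1. The FOXJ1 probe lies on chromosome 19 at 57262765 to 57262824 of the HGSC Btau_3.1 build. A second FOXJ1 probe was well above background on 1 array only.

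Among the dynein heavy chains, the motor subunits of the arms, DNAH7 of the inner arm showed the clearest contrast between 1 biopsy and the rest. Its level was -0.58, -0.35, -1.20 and -0.87 in 0 mM replicates 1 to 4 and -7.32, -1.10, -1.69 and -0.44 in 5 mM replicates 1 to 4. Except for 5 mM replicate 1, where the probe was not well above background, the groups overlapped. The DNAH7 difference of -1.89 ± 1.38 became -0.33 ± 0.33 without that cow. A second DNAH7 probe was well above background on 2 arrays only, both of the 0 mM group.

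The other tested heavy chains had differences from -1.51 to -0.30. DNAH9 and DNAH11, which belong to the outer arm, differed by -0.93 ± 0.69 and -0.89 ± 0.64, and by -0.18 and -0.27 without 5 mM replicate 1. DNAH6, an inner arm chain, differed by -1.51 ± 1.11, or -0.58 without 5 mM replicate 1, and varied widely among the 0 mM cows too, from -5.47 to -2.65. DNAH1, another inner arm chain, ranged from -3.06 to -2.40 in the 5 mM group and from -2.96 to -2.16 in the 0 mM group, and its difference was -0.30 ± 0.24. It was well above background on all 8 arrays, 5 mM replicate 1 included.

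The intermediate chains DNAI1 and DNAI2 anchor the outer arm to the doublet. DNAI1 was at -5.08, -4.78, -5.39 and -5.31 in 0 mM replicates 1 to 4 and at -7.12, -5.30, -5.73 and -5.07 in 5 mM replicates 1 to 4, a difference of -0.67 ± 0.43. Only 5 mM replicate 1 stood clearly below the 0 mM range, 5 mM replicate 3 lying just under it. DNAI2 was at -5.41, -5.76, -6.35 and -5.57 in the 0 mM cows and at -7.15, -6.37, -6.05 and -5.88 in the 5 mM cows, a difference of -0.59 ± 0.32. Without 5 mM replicate 1 the differences were -0.23 for DNAI1 and -0.33 for DNAI2.

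CCDC39 and CCDC40 form the molecular ruler that sets the spacing of inner arms and spokes along the doublet. CCDC39 was at -3.43, -3.17, -3.99 and -4.06 in 0 mM replicates 1 to 4 and at -5.46, -4.18, -4.65 and -3.50 in 5 mM replicates 1 to 4. The difference was -0.78 ± 0.42, with 3 of the 4 cows given 5 mM below all 0 mM cows and replicate 4 among the higher ones. CCDC40 was at -1.67, -2.33, -1.48 and -3.01 in the 0 mM cows and at -4.22, -1.96, -5.06 and -2.88 in the 5 mM cows. Unlike most of these genes, CCDC40 had its lowest value in 5 mM replicate 3, not in 5 mM replicate 1. Its difference of -1.41 ± 0.68 became -1.18 ± 0.73 when 5 mM replicate 1 was left out, and -0.90 when 5 mM replicate 3 was. Its probe was well above background on 3 of the 4 arrays with 5 mM, that of replicate 1 among them. The second CCDC40 probe, well above background on 3 arrays with 0 mM and 2 with 5 mM, gave -1.14 ± 0.61. The same 2 biopsies were lowest on it, but with 5 mM replicate 1 (-8.14) below 5 mM replicate 3 (-7.76). Both signals lie under the lowest signal well above background on their arrays (-6.215 and -6.601), so their order cannot be read.

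Radial spoke genes split into those that were near background in 5 mM replicate 1 and those that were not. RSPH9, a spoke head gene, was at -1.37, -2.10, -2.41 and -2.50 in 0 mM replicates 1 to 4 and at -6.70, -2.35, -3.40 and -2.55 in 5 mM replicates 1 to 4. Its difference was -1.65 ± 0.91, and -0.67 ± 0.35 without 5 mM replicate 1. RSPH1, also of the spoke head, was at -1.16, -2.13, -2.09 and -2.08 in the 0 mM cows and at -7.54, -1.93, -2.98 and -2.26 in the 5 mM cows. The high value of 0 mM replicate 1 and the low one of 5 mM replicate 1 bracket 6 cows between -2.98 and -1.93, and the difference was -1.82 ± 1.16, or -0.53 ± 0.34 without 5 mM replicate 1.

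RSPH10B, whose name marks it as a spoke head homolog, was at -1.65, -1.79, -2.81 and -2.21 in the 0 mM cows and at -3.48, -2.22, -2.72 and -2.13 in the 5 mM cows. The difference was -0.52 ± 0.37, and a second tested probe gave -0.30 ± 0.31. RSPH3, which encodes a spoke stalk protein, ranged from 0.42 to 0.98 in the 0 mM group and from 0.42 to 0.59 in the 5 mM group. Its difference was -0.14 ± 0.15, and 0.036 ± 0.20 by its second probe, so the sign depends on the probe.

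RSPH4A, a further spoke head gene, was not among the tested genes because its probe was well above background on 2 arrays, both of the 0 mM group. Its levels were -3.43, -5.02, -5.66 and -6.51 in 0 mM replicates 1 to 4 and -7.94, -6.90, -7.20 and -6.69 in 5 mM replicates 1 to 4. The groups did not overlap, but in 2 of the 0 mM cows and in all 5 mM cows the probe was not well above background. With all cows included, no other gene of the set, tested or untested, had groups without overlap. The share of 0.52% with 5 mM wholly below 0 mM covers tested genes only. No such share is given for untested genes, so how often this separation arises by chance among them cannot be read here. For each 5 mM array the higher of its lowest signal well above background and the signal of the probe was taken. The mean of these was 2.47-fold below the 0 mM mean. As 2 of the 0 mM signals were themselves not well above background, this value is not a lower limit. In a fit without the background filter the RSPH4A difference was -2.03 ± 0.62 with an adjusted p of 0.883 in limma, and after normexp it was -0.43.

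Of the central apparatus, HYDIN and SPAG6 were tested. HYDIN, a large protein of the projections on the central pair, was at -3.19, -3.03, -4.09 and -4.19 in 0 mM replicates 1 to 4 and at -7.46, -3.67, -5.07 and -4.40 in 5 mM replicates 1 to 4. The difference was -1.53 ± 0.77, and -0.76 ± 0.42 without 5 mM replicate 1. A second HYDIN probe, well above background on 2 arrays of the 0 mM group only, had means of -6.91 with 0 mM and -6.88 with 5 mM. SPAG6, an armadillo repeat protein of the central apparatus, was at -0.76, -0.31, -1.18 and -1.04 in the 0 mM cows and at -8.33, -0.82, -1.59 and -0.19 in the 5 mM cows. Its difference of -1.91 ± 1.65 rests on a signal not well above background in 5 mM replicate 1, and was -0.044 ± 0.36 without that cow.

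SPAG6 had 4 probes. Of these, 2 are listed over nearly the same span of chromosome 13 of the HGSC Btau_3.1 build, in plus order at chr13:22963276-22966316 and chr13:22963279-22966319, and share a run of 53 of their 60 bases. The first 30 bases of each are shown 5′ to 3′, with the shared run in capitals.
SPAG6 first overlapping probe: cagtaaaGTGCTGCCACATGATAGCAAAGC
SPAG6 second overlapping probe: taagGTGCTGCCACATGATAGCAAAGCTCG
These probes gave differences between the groups of -1.85 ± 1.44 and -1.94 ± 1.47. The fourth probe gave -1.17 ± 0.95. All 4 probes were well above background on 7 arrays and not on that of 5 mM replicate 1.

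DNAH6 gave the opposite picture, since the files place its probes on almost the same bases of chromosome 11 but their sequences share no run longer than 6, on either strand. They are listed in minus order at chr11:52103548-52103598 and chr11:52103551-52103610, and capitals mark the longest shared run in their first 30 bases.
DNAH6 first probe: tttaccggtaatAACTGGagttggcaagtc
DNAH6 second probe: aagctgtacaAACTGGctggtgtagaagac
The first probe was well above background on 5 arrays and the second on 0, so the DNAH6 values above rest on the first alone and its listed place is uncertain.

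The tektins are filament proteins inside the doublet wall, and TEKT2 had the lowest p of the 21 genes. TEKT2 was at -0.45, -1.05, -1.25 and -1.90 in 0 mM replicates 1 to 4 and at -3.37, -1.20, -2.52 and -2.06 in 5 mM replicates 1 to 4. The difference was -1.13 ± 0.48, with 3 of 4 cows given 5 mM below the 0 mM range, and -0.77 ± 0.41 without 5 mM replicate 1. TEKT4 was at -3.94, -3.76, -3.76 and -4.11 in the 0 mM cows and at -8.23, -4.11, -4.57 and -4.01 in the 5 mM cows, a difference of -1.34 ± 0.88, or -0.34 ± 0.18 without 5 mM replicate 1.

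TEKT1 ranged from -4.06 to -3.86 in the 0 mM group, the smallest SD there of the 21 genes at 0.089, and from -8.36 to -3.79 in the 5 mM group. TEKT3 had the smallest range over all cows, from -3.38 to -3.06 with 0 mM and from -3.40 to -3.22 with 5 mM, and its difference was -0.098 ± 0.13. CAPS encodes calcyphosine, a calcium-binding protein. It was at 2.62, 2.67, 2.04 and 1.80 in 0 mM replicates 1 to 4 and at 0.69, 2.08, 1.41 and 2.11 in 5 mM replicates 1 to 4. The CAPS difference was -0.71 ± 0.36, and -0.42 ± 0.29 without 5 mM replicate 1.

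**Figure D3:**
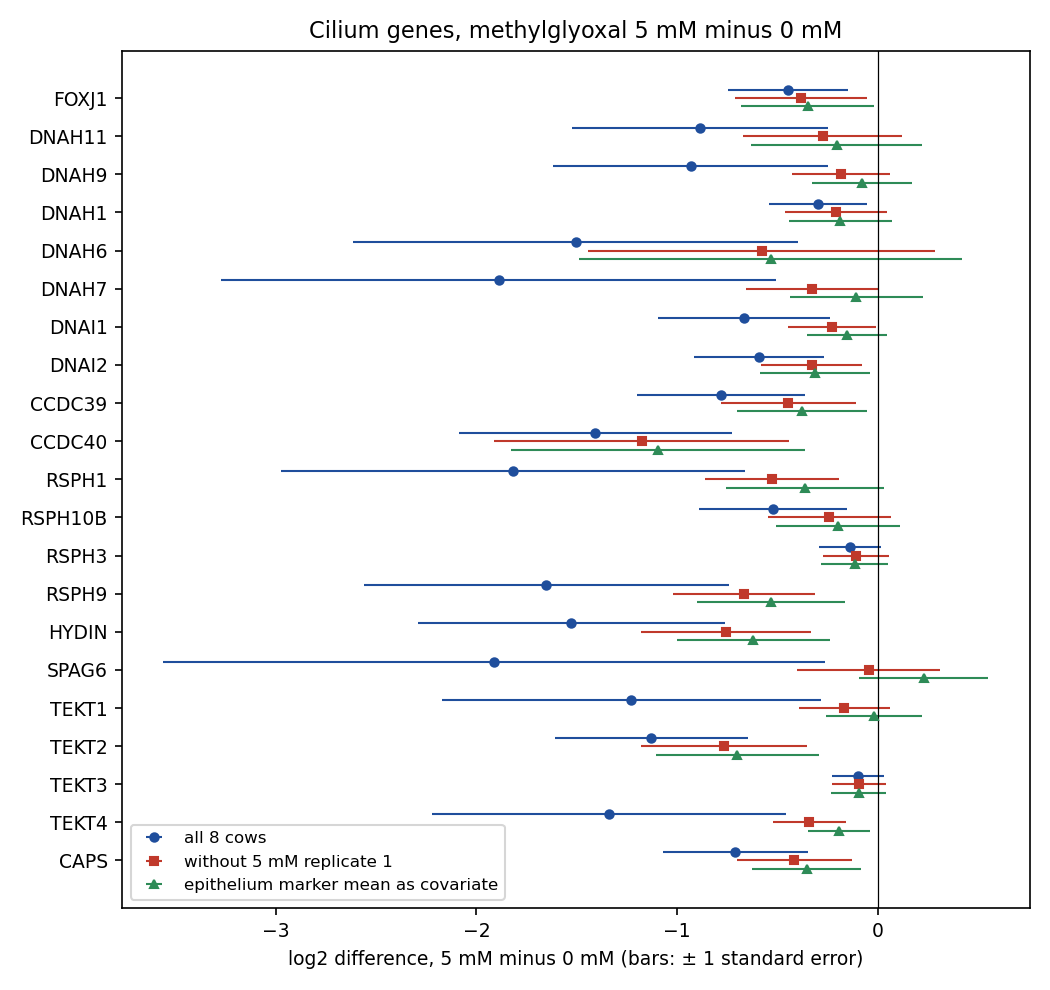
Log2 difference of each tested gene, 5 mM minus 0 mM, with bars of ± 1 SE, from the fit to all 8 cows (circles), without 5 mM replicate 1 (squares) and with the epithelium marker mean as a covariate (triangles). The points of SPAG6 move from -1.91 to -0.044 and 0.23, while those of CCDC40 are at -1.41, -1.18 and -1.10.

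The genes were unequally low in 5 mM replicate 1. Against the median of the other 7 cows, that biopsy differed by a median of -2.12 over the 21 genes and 0.024 over all tested genes. SPAG6 was at least 42.1-fold lower and DNAH7 at least 40.8-fold lower in that biopsy, taking the lowest signal well above background on that array as the limit. RSPH1 and RSPH9 were at least 17.4-fold and 13.9-fold lower. TEKT1, DNAH6, TEKT4 and HYDIN were at least 5.04-fold, 4.7-fold, 4.6-fold and 4.36-fold lower. For DNAH9, DNAI1, DNAH11, DNAI2 and FOXJ1 the limits were smaller, at 2.13-fold, 1.89-fold, 1.38-fold, 1.26-fold and 1.25-fold. The probes of TEKT2, CCDC40, CCDC39, CAPS and RSPH10B remained above background and differed by -2.12, -1.90, -1.47, -1.39 and -1.27 on the log2 scale. DNAH1 (-0.43), RSPH3 (-0.15) and TEKT3 (-0.049) were close to the other cows, and FOXJ1 was at -0.60 with its probe not well above background there.

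**Figure D4:**
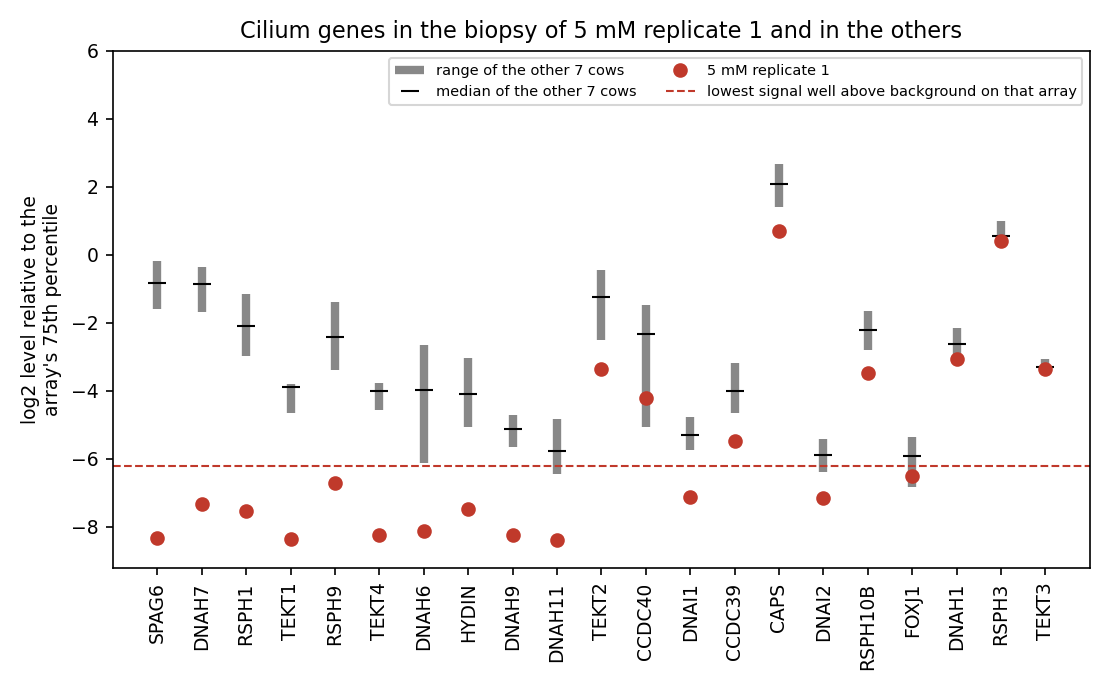
Log2 level of the 21 tested genes relative to the array's 75th percentile, in 5 mM replicate 1 (red points) and in the other 7 cows (grey bars span the range, black ticks mark the median), with genes ordered by the gap. The dashed line is the lowest signal well above background on that array, and 13 of the 21 points lie below it, whereas DNAH1, RSPH3 and TEKT3 lie at or near the grey bars.

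The remaining 6 untested genes gave no level to compare. SPAG16 and SPAG17, of the central apparatus, and TEKT5 exceeded background on none of the arrays. The SPAG16 signals were -8.68, -8.16, -7.86 and -8.78 in 0 mM replicates 1 to 4 and -8.28, -8.46, -8.50 and -8.26 in 5 mM replicates 1 to 4. Those of SPAG17 were -7.98, -8.10, -7.42 and -8.45 in the 0 mM cows and -8.40, -8.65, -8.80 and -8.69 in the 5 mM cows, all at background. DNAH2, DNAH5 and RSPH6A were above it on 1 array each, of the 0 mM group. The median GC content was 45% for the tested and for the untested probes alike. By position, 7 of the 27 genes with a chromosome (25.9%) have their probe on chromosome 19, namely CCDC40, DNAH2, DNAH9, DNAI2, FOXJ1, TEKT1 and TEKT3. That chromosome holds 6.04% of all genes with both a symbol and a chromosome.

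Other genes of the motile cilium lay lower as well, again without a call. Of 70 other axoneme genes 47 were tested, 45 were lower and the median was -0.80, or -0.20 with 37 lower without 5 mM replicate 1. Its lowest p values belonged to NME9 (-2.97 ± 1.20, well above background on 3 arrays of 0 mM and 1 of 5 mM), CLXN, which encodes the calcium sensor calaxin of the outer arm (-1.22 ± 0.50), and CFAP126 (-0.44 ± 0.18). Of 54 further markers of ciliated epithelium 36 were tested, 33 were lower and the median was -1.00, or -0.21 without that cow. They were led by KIF27, a kinesin gene (-0.38 ± 0.15), STPG1 (-0.99 ± 0.44) and CCDC181 (-1.36 ± 0.61). Genes for assembling and docking dynein arms were lower in 13 of 16 tested cases, with a median of -0.325 (-0.11 without that cow), led by ODAD3, a docking complex gene (-0.96 ± 0.54), PIH1D2 (-0.63 ± 0.41) and DNAAF6, an assembly factor gene (-1.10 ± 0.73).

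The regulators and the primary cilium genes were described in the same way. Of the genes that start the ciliated cell programme, 6 of 9 tested were lower with a median of -0.17, among them DEUP1, which builds centrioles in multiciliated cells (-0.55 ± 0.29), CCDC78 (-0.44 ± 0.24) and MYB (-1.29 ± 0.85). Their median was 0.053 after normexp. Genes of intraflagellar transport and the primary cilium, which most cells carry, were lower in 21 of 40 tested cases with a median of -0.018, which ran from -0.056 to 0.047 as each cow was left out. In 5 mM replicate 1 this list differed from the other cows by a median of 0.084, where the epithelium markers differed by -4.24 and the other axoneme genes by -2.16. BBS9 (0.36 ± 0.18), TCTN1 (-0.33 ± 0.18) and TTC21B (0.32 ± 0.21) had its lowest p values. No gene of these 5 lists had an adjusted p under 0.05 in limma. An unadjusted p under 0.05 was found for 3 of the 47 other axoneme genes and 1 of the 36 ciliated epithelium markers, all lower. In the other lists 0 of the 16, 9 and 40 tested genes reached it. Of all tested genes, 1.06% were lower at that level.

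Markers of the other cells of a biopsy varied as well. Among the epithelium markers were KRT7 (-1.35 ± 0.75) and EHF (-1.26 ± 0.72), and the smooth muscle markers with the lowest p were CASQ2 (-1.20 ± 0.68), PLN (1.45 ± 0.97) and SYNM (1.52 ± 1.06). Leukocyte markers were lower in 16 of 18 tested cases, with a median of -0.69 (-0.38 without 5 mM replicate 1), among them CD5 (-1.04 ± 0.46), CD3G (-1.01 ± 0.49) and MS4A1, whose probe exceeded background on 4 arrays with 0 mM and 0 with 5 mM. Stromal fibroblast markers were lower in 6 of 13 cases, with HAND2 at -0.73 ± 0.31, DPT at 1.59 ± 0.95 and PDGFRA at 0.65 ± 0.49. Endothelial markers were lower in 6 of 10 cases, with TEK at -0.43 ± 0.25, PECAM1 at 0.41 ± 0.24 and ROBO4 at -0.45 ± 0.31.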

How the data were processed

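Spot intensities came from scanner files that the authors made with Agilent Feature Extraction, whose version is 11.5.1.1 according to the headers of the files. The submitters' processing notes name 10.5.1.1. The deposited intensity was spatially detrended within each array, per the file headers. The 0 or 1 marks for signals above background, saturation and outliers are those of the same software. The authors' deposited table of log2 values, centred per probe, served as an alternative source.

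Control spots and outlier-marked spots were left out, log2 processed signals were averaged per probe, and each array was shifted to put its 75th percentile at 0. The 31108 probes well above background on at least 4 of 8 arrays were fitted with limma 3.58.1 in R 4.3.3 (lmFit, eBayes), with Benjamini-Hochberg adjustment over all of them. The fit was tested on simulated arrays with independent noise, the SD of each probe held at or below the median over probes. The cilium genes vary more than that and are not independent, so this does not show how well their differences would be found. Symbols were updated with RefSeq's ARS-UCD2.0 gene table, and 33753 probes had one. No genome of the array's build was used, so no exon or other gene part is named.

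Named with values were the 12 tested genes with the lowest p, FOXJ1, CAPS, CCDC39, CCDC40, HYDIN and the SPAG genes whatever their values, and the 3 genes with the lowest p in each list, of which 1 is not reported here. Further members were described by range or difference, except DNAH7 and RSPH4A, whose values in each cow are given outside this rule. Members and lists were chosen with earlier results of these data known, and the lists are counted, not tested. The alternatives were 2 other normalizations, normexp, 2 other filters, moderated variance with trend, array weights, the deposited table, slide, replicate number, an epithelium covariate, the mean over a gene's probes and leaving out each cow.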

Additional observations from a re-analysis of the deposited data

Results flagged for a closer look

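Within the groups of 4 cows, 2 of 42 gene and group combinations held a cow far from the other 3, by Dixon's criterion. Chance marks about 1 in 20 groups. RSPH1 was at -1.16 in 0 mM replicate 1, above the other 0 mM cows, with a gap of 0.949 of the group's range. TEKT4 was at -8.23 in 5 mM replicate 1, below the other 5 mM cows, with a gap of 0.868 of the range and a probe not well above background there.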

How the results depend on the processing

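No probe passed an adjusted p of 0.05 in any fit, and none passed 0.1 in the main one. All tested cilium genes stayed lower under the other normalizations, normexp, trend, array weights, the deposited table, slide as a block, no filter and each cow left out, where their median ranged from -1.25 to -0.33. Exceptions were SPAG6 at 0.23 with the epithelium covariate and genes within slides 2 and 3. With a filter on all 8 arrays 7 genes remained, all 7 lower. Within slide 1 the medians were -2.92 for the cilium genes, -2.54 for other axoneme genes, -2.97 for ciliated cell markers and -0.13 for the primary cilium list, which was at 0.11 within slide 3. The regulators were at 0.053 with normexp and 0.019 within slide 3. The causes were not tested. Replicate numbers mark different cows, and deviations of same-numbered cows correlated at 0.403, 0.355, -0.302 and 0.306 for numbers 1 to 4. The highest correlation of each 0 mM cow with a 5 mM cow of another number was 0.325, 0.0967, 0.295 and -0.0706. The same-numbered cow was thus the closest for numbers 1, 2 and 4 and not for number 3. Numbers 1, 2 and 4 each lie on 1 slide and number 3 is split over 2 slides, so number and slide are partly confounded, and the numbers were not taken as pairs. With a replicate block the median was -0.93, 21 of 21 genes were lower and 0 probes passed. Signals near background limit FOXJ1, DNAH9, DNAH11, DNAI1, DNAI2 and the values of 5 mM replicate 1. After normexp the differences ran from -1.05 to -0.035, with DNAH9 at -0.044, DNAI1 at -0.035 and DNAI2 at -0.045. The probes of HYDIN and DNAH6 were well above background on only 2 arrays with 5 mM each.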

Other observations

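Several genes of the same protein families are named otherwise in the array files and were looked at after the members' values had been seen. DNAI3, listed as WDR63, was at -7.40 in 5 mM replicate 1 and between -2.01 and -0.33 in the other cows, a difference of -2.00 ± 1.33 that was -0.51 without that cow. DNAH10, found by its full name, was at -4.70 against -2.53 to -0.81, a difference of -1.27 ± 0.72, or -0.53 without that cow. RSPH14, listed as RTDR1, was at -8.31 against -5.29 to -3.85, a difference of -0.97 ± 0.90, or -0.013 without it. DNAH12 (-0.46 ± 0.31, or -0.19 without that cow) and DNAI7, listed as CASC1 (-0.68 ± 0.45, or -0.25 without it), were lowest in the same biopsy by smaller gaps.

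DNAI4, listed as WDR78, went the other way in that biopsy, with -5.68 in 5 mM replicate 1 and -6.94 to -5.86 in the others, near background. Its difference between the groups was still below 0, at -0.18 ± 0.32, or -0.41 without that cow. DNAH8 and DNAH17 had no array above background. None of these genes had an adjusted p under 0.05 in limma, the lowest being 0.913.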
